A study of Mus musculus with 34 samples.

Results

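The genes described here carry the calcium cycle and the electrical coupling of heart muscle, together with the peptide hormones that heart muscle secretes: Ryr2, Casq2, Pln, Atp2a2, Slc8a1, Cacna1c, Gja1, Nppa and Nppb. They were chosen by symbol, as calcium cycling, ion channel, gap junction and natriuretic peptide genes, with earlier results of these data known. All 9 were found in the deposited table of 51368 genes. Their levels in 1 heart library were set against those in 33 liver libraries, and their levels in liver were then followed across the ways in which the libraries had been made.

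In a heart muscle cell, each action potential opens the L-type calcium channel, and the calcium that enters triggers a larger release from the sarcoplasmic reticulum (SR), the internal calcium store, through the ryanodine receptor. Relaxation follows when a pump returns calcium to the SR and an exchanger moves calcium out across the plasma membrane. Gap junctions pass the excitation from cell to cell, and stretch of the heart wall releases natriuretic peptides into the blood. In liver, calcium signals run mainly through inositol trisphosphate receptors, and hepatocytes are joined by other connexins.

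The series compared library preparations for RNA sequencing, so its groups are technical. Per the labels, tissue came from 1 wild-type C57BL/6J mouse aged 12 weeks, whose sex the labels give in conflicting ways, and no treatment was named. The heart library and 3 liver libraries of batch 1 were unselected, meaning that total RNA was sequenced without removal of ribosomal RNA (rRNA), and 3 further unselected liver libraries formed batch 2. All of these had a slow PCR ramp (the rate at which the thermocycler changes temperature) and medium fragments, and were made from 20 ng of RNA. The other liver libraries were made from 200 ng by polyA selection, which captures RNA by its tail (9 libraries, batch 1), by pull-down of rRNA with probes (9, batch 2), or by enzymatic digestion of rRNA bound to probes (9, batch 2). Within each method the libraries cross 3 ramp rates with 3 fragment lengths, 1 library per combination. All libraries had 13 PCR cycles. Set directly against the rRNA methods, polyA selection also differs in batch, and only unselected liver libraries are in both batches. Nothing in the labels makes the libraries separate animals, so p-values measure only the spread between preparations.

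Total estimated counts were 22.3 M (M, 1e+06 counts) in the heart library and 19.9 to 21.7 M in unselected liver. They were 23.5 to 41.4 M with polyA selection, 20.0 to 30.2 M with digestion and 1.13 to 39.2 M with pull-down, where the library with slow ramp and long fragments was the shallow one. Nuclear and mitochondrial rRNA genes together with Lars2 held 80.6% of the heart counts and 84.8% to 85.7% of those of the unselected liver libraries, against at most 24.5% in any selected library. The tissue labels were checked with marker genes. All 10 cardiomyocyte markers were at least 4-fold higher in the heart library, and their summed level was 51777 normalised CPM there (CPM, counts per 1e+06 counts of the library total after scaling by the TMM method) against at most 1.41 in any liver library. All 8 hepatocyte markers were at least 4-fold lower in heart, with a summed level of 155 against 51635 to 53161 normalised CPM in unselected liver. Stellate cell, fibroblast and smooth muscle markers summed to 514 normalised CPM in heart against 183 to 186 in the liver libraries of batch 1, with 5 of 8 at least 4-fold higher and 2 lower. Endothelial markers summed to 299.7 against 174 to 196, with 2 of 5 higher and 2 lower. Red blood cell markers summed to 295 against 165 to 181, with none of 3 past 4-fold, and Kupffer cell and macrophage markers to 10.5 against 89.5 to 93.3, with 2 of 4 lower. The part of these cells in the heart levels of the genes below was not tested. Of the atrial muscle markers, Myl7 and Sln were at 0 in the heart library and Myl4 had 2 counts.

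The upstream sequences of the genes that were near 0 in liver show what lies before their start sites. RefSeq promoter entries (build GRCm38.p6) matched 8 of the 9 genes. Printed here, 5′ to 3′ on the strand of the gene, are the 250 bases before the start of Ryr2 (minus strand, chr13:12106946-12107195), Casq2 (plus strand, chr3:102086165-102086414) and Nppa (plus strand, chr4:148000472-148000721), and 231 bases for Pln (plus strand, chr10:53337436-53337666). The Pln stretch is shorter because 19 bases of its window lie inside the gene in the GENCODE annotation. Capitals mark matches, on either strand, to 6 motifs: the core promoter element TATAAA, the letters GATAA found in sites for GATA factors, the letters GGAATG found in sites for TEAD factors, the letters TNAAGTG found in sites for Nkx2-5, the CArG box and the MEF2 site in its standard consensus form.
Ryr2: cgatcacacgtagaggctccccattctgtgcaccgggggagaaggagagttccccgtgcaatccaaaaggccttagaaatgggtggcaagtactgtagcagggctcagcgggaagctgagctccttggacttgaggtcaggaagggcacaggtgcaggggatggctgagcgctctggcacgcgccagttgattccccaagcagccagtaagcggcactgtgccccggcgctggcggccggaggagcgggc
Casq2: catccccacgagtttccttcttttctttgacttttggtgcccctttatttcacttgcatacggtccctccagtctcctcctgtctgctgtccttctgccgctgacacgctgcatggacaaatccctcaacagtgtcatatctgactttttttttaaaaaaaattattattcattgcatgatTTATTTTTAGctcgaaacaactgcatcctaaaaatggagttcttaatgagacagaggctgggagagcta
Pln: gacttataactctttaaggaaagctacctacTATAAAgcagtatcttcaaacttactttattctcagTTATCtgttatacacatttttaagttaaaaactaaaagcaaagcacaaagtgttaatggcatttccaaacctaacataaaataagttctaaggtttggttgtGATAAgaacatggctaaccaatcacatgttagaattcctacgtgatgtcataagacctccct
Nppa: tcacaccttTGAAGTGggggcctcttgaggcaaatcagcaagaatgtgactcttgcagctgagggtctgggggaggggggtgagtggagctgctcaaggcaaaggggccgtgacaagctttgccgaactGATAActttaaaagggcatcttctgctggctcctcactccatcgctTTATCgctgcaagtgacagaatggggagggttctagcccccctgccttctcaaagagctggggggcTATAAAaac
The Ryr2 stretch held none of these 6 motifs, and Casq2 held a MEF2 site at 69 to 60 bases before its start. Nppa held TATAAA at 9 to 4 bases before its annotated start, GATAA at 121 to 117 bases on the same strand and at 75 to 71 bases on the opposite strand, and TNAAGTG at 241 to 235 bases. Pln held TATAAA at 219 to 214 bases and GATAA at 183 to 179 bases (opposite strand) and 81 to 77 bases (same strand) before its RefSeq start. The RefSeq window of Nppb is not printed, because its last 112 bases lie inside the annotated gene. It held TATAAA once, GGAATG once and GATAA 2 times, all within those 112 bases and so not upstream of the gene as annotated by GENCODE. Among all 32851 RefSeq windows of 250 bases, 12.4% held TATAAA, 22.6% GATAA, 12.6% GGAATG, 10.1% TNAAGTG, 1.47% a CArG box and 2.92% a MEF2 site. For windows of 231 bases, as printed for Pln, TATAAA was in 11.8% and GATAA in 21.5%. The motifs do not overlap each other in these stretches, and a match describes letters, not a working site.

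All 9 genes were higher in the heart library than in the 3 unselected liver libraries of batch 1 by more than 4-fold. The smallest difference was that of Atp2a2, at 56.6-fold, and the largest ratios were those of Pln and Ryr2, which had 1 and 2 counts in those liver libraries together. Among the 12483 genes with at least 20 counts in the heart library or in the 3 liver libraries together, 12.2% were at least 4-fold higher in heart. Of the 9 genes, 6 passed that count minimum only through the heart library, so they had to be high in it, and the other 3 (Atp2a2, Slc8a1 and Gja1) also passed it in liver. There is 1 heart library, so no difference between tissues has a replicate check, no p-value is given, and intervals cover counting error only. In a whole tissue, fewer cells of a type and less RNA per cell cannot be told apart.

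**Figure D1:**
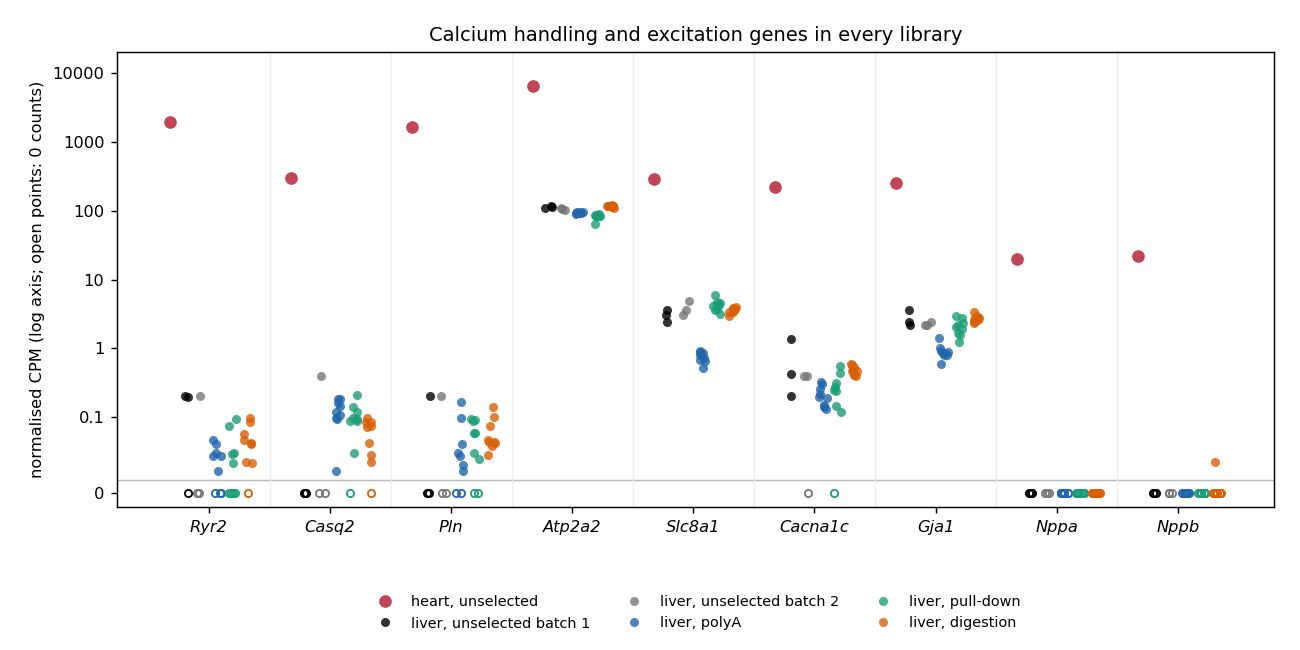
Normalised CPM (log axis) of the 9 genes in each of the 34 libraries, coloured by tissue and preparation, with open points on the lowest line for libraries with 0 counts. The heart library lies above every liver library for each gene, and Nppa is at 0 in all 33 liver libraries.

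Ryr2, the ryanodine receptor that releases calcium from the SR (ENSMUSG00000021313, chr13:11553102-12106945, minus strand; all coordinates of genes are GENCODE M21, GRCm38), had 17212 counts in the heart library. The 3 liver libraries of batch 1 had 0, 1 and 1 counts. The ratio of normalised CPM, with the 3 liver libraries pooled, was 14087, with a 95% counting interval of 3899 to 116332 (log2 13.78). Against the 3 unselected libraries of batch 2 the log2 ratio was 14.81. Over all 33 liver libraries Ryr2 had 38 counts, at most 5 in any of them, and 11 libraries had none.

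Casq2, the cardiac calsequestrin that binds calcium inside the SR (ENSMUSG00000027861, chr3:102086415-102146514, plus strand), had 2636 counts in heart and 0 in each of the 3 liver libraries. Against a floor of 3 counts over those libraries together, it was at least 1438-fold higher in heart. Casq2 had 103 counts over the 33 liver libraries, at most 9 in any, more than Ryr2 or Pln, whose heart counts were higher. Libraries with 0 counts numbered 7 of 33.

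Pln, phospholamban, the small protein that holds back the SR pump (ENSMUSG00000038583, chr10:53337667-53345987, plus strand), had 14727 counts in heart. The liver libraries of batch 1 had 0, 0 and 1, a ratio of 24107 with an interval of 4326 to 952230 (log2 14.56). Replicate 3 held that count: without it liver was at 0 and the log2 ratio was at least 12.37, and without replicate 1 it was 13.95. The 33 liver libraries held 60 counts, at most 7 in any.

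Ryr2, Pln and Casq2 were therefore detected in liver only as traces. In the unselected liver libraries, 3 in each batch, Ryr2 had 2 counts in batch 1 and 1 in batch 2, Pln 1 and 1, and Casq2 0 and 2. These counts are too few to order the batches.

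Atp2a2, which encodes the SR calcium pump SERCA2 (ENSMUSG00000029467, chr5:122453513-122502225, minus strand), was the highest of the 9 genes in both tissues. It had 56816 counts in heart and 525, 543 and 575 in the liver libraries of batch 1, giving a ratio of 56.6 with an interval of 53.9 to 59.5. The gene makes a muscle form and a form found in most tissues by alternative splicing, and gene-level counts do not separate them.

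Slc8a1, the sodium-calcium exchanger NCX1 (ENSMUSG00000054640, chr17:81373105-81738377, minus strand), had 2534 counts in heart and 12, 15 and 17 in liver, a ratio of 94.3 with an interval of 70.0 to 130. Cacna1c, the pore subunit of the L-type calcium channel (ENSMUSG00000051331, chr6:118587240-119196418, minus strand), had 1989 counts in heart and 1, 2 and 7 in liver, a ratio of 326 with an interval of 177 to 680. A single liver library, unselected replicate 1, held 7 of the 10 liver counts of Cacna1c, and without it the log2 ratio was 9.48 in place of 8.35. Gja1, connexin 43, the main gap junction protein of working heart muscle (ENSMUSG00000050953, chr10:56377330-56402513, plus strand), had 2256 counts in heart and 10, 12 and 18 in liver, a ratio of 92.3 with an interval of 67.6 to 130. For each of these genes, the heart value lay far above the whole range of the liver libraries.

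The natriuretic peptide genes Nppa (atrial natriuretic peptide; ENSMUSG00000041616, chr4:148000722-148002079, plus strand) and Nppb (brain natriuretic peptide; ENSMUSG00000029019, chr4:147985788-147987205, plus strand) lie next to each other on chromosome 4. They had 178 and 196 counts in heart, the lowest of the 9 genes. Both were at 0 in the 3 liver libraries of batch 1, so they were at least 97.1-fold and 107-fold higher in heart against the floor of 3 counts. Nppa had no count in any of the 33 liver libraries, whose 880 M counts allow up to 0.00341 CPM. Nppb had 1 count in 1 digestion library.

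**Figure D2:**
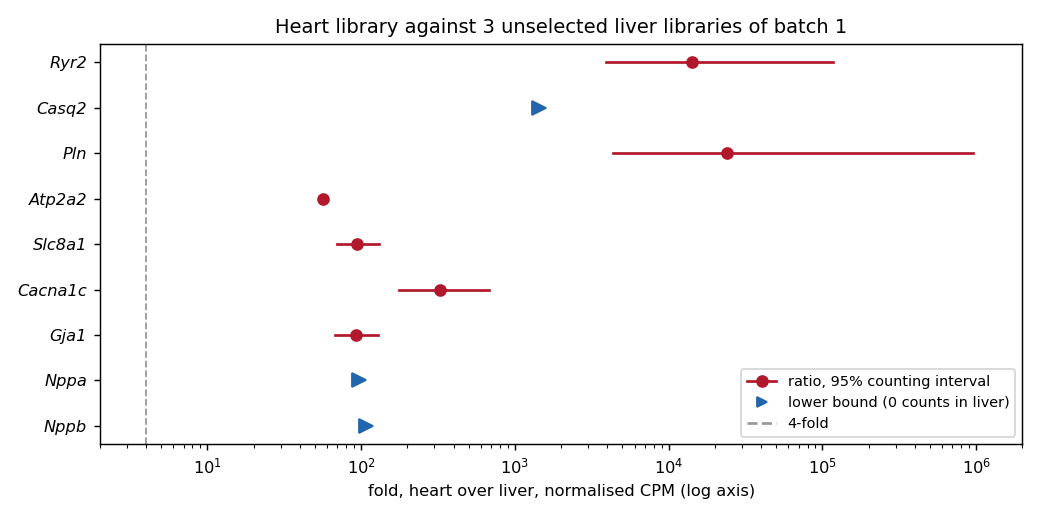
Fold of the heart library over the 3 unselected liver libraries of batch 1, pooled, for each gene, on a log axis. Points with lines are ratios with 95% counting intervals, triangles are lower bounds for genes with 0 liver counts, and all 9 lie to the right of the dashed 4-fold line.

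Levels of different genes were compared per kilobase of the longest coding transcript. In heart, Atp2a2 stood at 1414 normalised CPM per kb and Pln at 704. Casq2 (115) and Ryr2 (114) came next and had overlapping counting intervals, 111 to 120 and 113 to 116. Gja1 followed at 79.2 per kb, then Nppb at 28.0 and Nppa at 23.0, again with overlapping intervals (24.2 to 32.2 and 19.7 to 26.6). Cacna1c (16.9, 16.1 to 17.6) and Slc8a1 (15.3, 14.7 to 15.9) were the lowest. Among 10134 coding genes ranked in the heart library, these levels ran from the percentile 88.9 for Slc8a1 to 99.7 for Atp2a2. Per kilobase of all annotated exons, the first 4 places were the same, while Gja1, with 10.3 kb of exons against 3.18 kb of coding transcript, stood at 24.6 and below Nppb, and Cacna1c (10.5) stood below Slc8a1 (15.0).

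In unselected liver of batch 1 the order per kb of coding transcript was Atp2a2 at 25.0 ± 0.889 normalised CPM per kb (SD, n = 3), Gja1 at 0.854 ± 0.248, Slc8a1 at 0.163 ± 0.0345 and Cacna1c at 0.0512 ± 0.0479. The ranges of these 4 genes did not overlap between neighbours. Pln (0.0287) and Ryr2 (0.00792) rested on 1 and 2 counts. Gja1 was thus the second in liver and the fifth in heart on this scale.

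Opposite-strand genes share exon positions with Atp2a2 (Gm43361), Pln (Cep85l and Gm47644), Slc8a1 (AC122399.1 and Gm11096) and Nppa (Gm13054), and no same-strand gene does so with any of the 9. The kits used were stranded, but the strand setting of the quantification is not given in the sources used here.

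The remaining genes of the same pathways were taken from a list of 79. Of these, 67 had at least 20 counts in heart or in the 3 liver libraries together; 39 were at least 4-fold higher in heart and 4 at least 4-fold lower, where 12.2% and 16.4% of all 12483 genes were. The count minimum was met only through the heart library by 31 of the 39. Of the 36 genes with at least 20 counts in liver, 8 were higher, 4 lower and 24 neither. Of these 36, 3 met the minimum only through liver, Gjb1 and Gjb2, which were lower, and Cacna1d, which was neither. The median log2 ratio was 3.19 for the 67 genes, with genes at 0 in liver set at their bound, 6.74 for the 9 and -0.30 for all 12483.

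Among genes of SR release, buffering and the junction between SR and plasma membrane, 4 of 11 were at least 4-fold higher in heart and none was lower. Hrc, the histidine-rich calcium-binding protein of the SR, had 3244 counts in heart against 1 in liver, a ratio of 5310 (952 to 209803). Jph2, junctophilin 2, which ties the SR to the plasma membrane, had 1492 against 1, a ratio of 2442 (438 to 96528). Without the 1 liver library that held the count, the log2 ratio was at least 10.24 in place of 12.37 for Hrc (replicate 2) and at least 9.07 in place of 11.25 for Jph2 (replicate 3). The 3 inositol trisphosphate receptor genes did not reach 4-fold in either direction. Itpr2 had 216 counts in heart and 866 over the 3 liver libraries, a log2 ratio of -1.29, and Itpr1 had 414 and 1243, a log2 ratio of -0.88. Itpr3 had 60 and 43, a log2 ratio of 1.19 (a fold of 2.28, 1.52 to 3.46).

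Of 4 sodium channel genes, 3 were at least 4-fold higher. Scn4b, a sodium channel accessory subunit, had 506 counts in heart against 1 in liver, a ratio of 828 (148 to 32779). All 17 potassium and pacemaker channel genes with enough counts were at least 4-fold higher in heart. Kcnip2, a subunit of the transient outward potassium channel, had 497 counts against 1 (ratio 814, 145 to 32197), and Kcnk3, a background potassium channel, had 1088 against 0, at least 594-fold higher. Without the 1 liver library that held the count, the log2 ratio was at least 7.50 in place of 9.69 for Scn4b (replicate 1) and at least 7.53 in place of 9.67 for Kcnip2 (replicate 2). Calcium channel subunit genes were higher in 4 of 5 cases.

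Genes of calmodulin, its kinases and kinase anchors, together with the beta-1 adrenergic receptor gene Adrb1, were higher in 4 of 9 cases and lower in none. Adrb1 was among those higher. Akap6, which anchors protein kinase A at internal membranes, had 1712 counts in heart and 5 in liver, a ratio of 560 (240 to 1728; log2 9.13, and 9.90 without replicate 2). Pump and exchanger genes other than Atp2a2 and Slc8a1 were higher in 2 of 8 cases and lower in 1: Slc8b1, the mitochondrial sodium-calcium exchanger, had 42 counts in heart and 704 over the 3 liver libraries, a log2 ratio of -3.36.

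Of 7 gap junction genes, 3 were at least 4-fold higher in heart and 2 lower, where 12.2% and 16.4% of all genes were. Each of these met the count minimum only in the tissue where it was higher, so it had to be high there. Gja4 (36 counts in heart, 23 in liver) and Tjp1 (675 and 811) met it in both tissues and did not reach 4-fold. Gjb1 and Gjb2, the connexins of hepatocytes, had 4 and 8 counts in heart against 4549 and 3046 over the 3 liver libraries, log2 ratios of -9.44 and -7.86. These are the lowest ratios of the list, while Gja1 had a log2 ratio of 6.53.

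Genes that process or bind natriuretic peptides were for the most part detected in both tissues, unlike Nppa and Nppb. Of 6 with enough counts, 2 were at least 4-fold higher in heart and 1 lower. Corin, the protease that cleaves the precursor of atrial natriuretic peptide, had 1007 counts in heart against 2 in liver, a ratio of 824 (228 to 6815). Both liver counts were in replicate 2, and without it the log2 ratio was at least 8.55 in place of 9.69. Furin, a protease of the secretory pathway, and Mme, neprilysin, which degrades the peptides, were lower in heart, with log2 ratios of -1.96 and -2.26; Mme passed 4-fold and Furin did not. The clearance receptor gene Npr3 had 85 counts in heart against 26 in liver, a ratio of 5.35 (3.41 to 8.65). The receptor genes Npr1 and Npr2 had log2 ratios of 0.03 and 0.19, inside counting error (folds of 0.783 to 1.33 and 0.965 to 1.34).

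**Figure D3:**
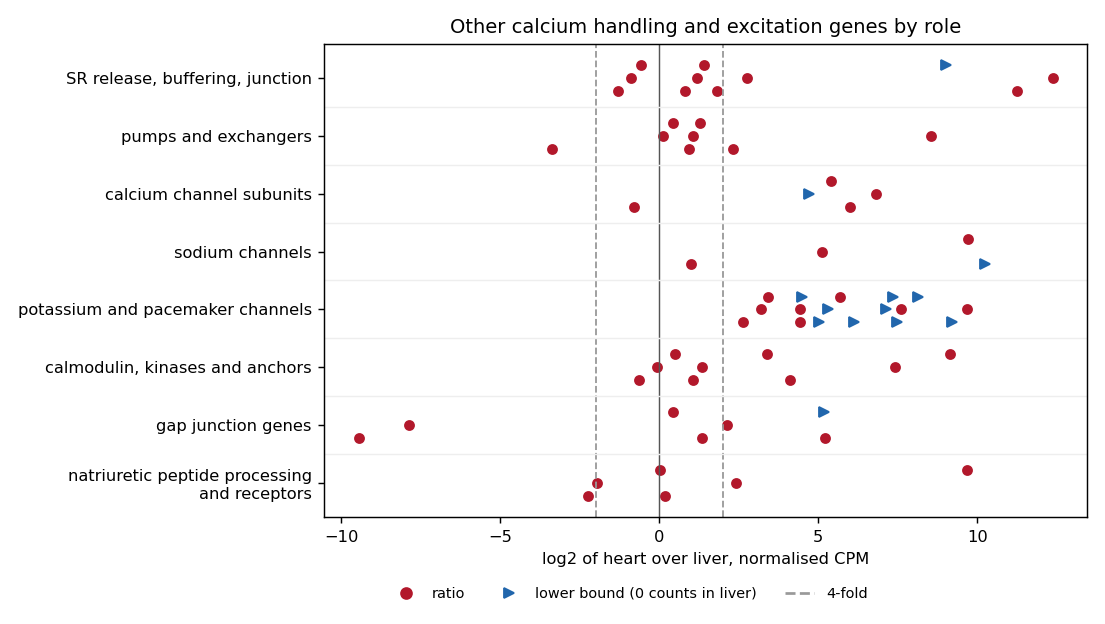
The log2 ratio of heart over unselected liver of batch 1 for 67 further genes, in rows by role. Points are ratios, triangles are lower bounds for genes with 0 liver counts, dashed lines mark 4-fold either way, and the 2 lowest points are Gjb1 and Gjb2.

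How the counts were scaled moved the balance between the tissues. With library totals in place of TMM, the median log2 ratio of all genes was 0.48 in place of -0.30, and 60.6% of the genes past 4-fold were higher in heart, against 42.6%. All 9 genes stayed past 4-fold under every scaling, reference and left-out library that was run, and past 16-fold.

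Within liver, 4 of the 9 genes had enough counts to be tested across preparations: Atp2a2, Slc8a1, Cacna1c and Gja1. Ryr2, Pln, Casq2, Nppa and Nppb did not pass the filter on low counts. Tests were edgeR quasi-likelihood F-tests over all genes, with Benjamini-Hochberg adjustment and a threshold of 0.05 on the adjusted p. Values are normalised CPM, and differences are log2 fold changes with their standard errors (SE). The comparisons of pull-down and digestion with unselected libraries share the 3 unselected libraries of batch 2, and each selected method also differs from them in input and, for polyA and digestion, in kit. TMM sets the bulk of the genes near 0: with library totals instead, where rRNA takes most of the unselected counts, the median log2 fold change of all genes became 2.67 for polyA, 2.31 for pull-down and 2.85 for digestion against unselected, from 0.04, 0.06 and 0.04. The share of called genes that were higher rose with it to 97.6%, 99.7% and 99.7%, from 50.8%, 53.3% and 48.1%, and all differences below from unselected libraries are relative to that median. With DESeq2 the shares were 41.1% for pull-down and 34.4% for digestion.

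With polyA selection all 4 tested genes were lower than in the unselected libraries of batch 1, in a comparison where 50.4% of 15422 genes were called. Slc8a1 fell most. Its levels were 2.38, 3.02 and 3.66 normalised CPM in the unselected libraries and 0.516 to 0.920, with a median of 0.804, in the 9 polyA libraries. The groups did not overlap, and the log2 fold change was -2.01 (SE 0.26, edgeR adjusted p = 1.82e-07).

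Gja1 stood at 2.15, 2.38 and 3.62 normalised CPM in the unselected libraries and at 0.598 to 1.40 (median 0.870) in the polyA libraries. The highest polyA library was below the lowest unselected one, and the log2 fold change was -1.74 (SE 0.29, edgeR adjusted p = 1.02e-05). Atp2a2 moved least, from 108, 113 and 116 to 89.7 to 94.7 (median 93.0), again without overlap, with a log2 fold change of -0.28 (SE 0.05, edgeR adjusted p = 7.21e-05). Cacna1c had 0.201, 0.430 and 1.39 normalised CPM unselected and 0.133 to 0.328 with polyA, so the groups overlapped. Its log2 fold change was -1.69 (SE 0.61, edgeR adjusted p = 0.0224), and without unselected replicate 1 it was -0.56 with an adjusted p of 0.656 (0.00351 to 0.656 over the alternatives other than library totals). Under library totals all 4 genes were higher with polyA, Cacna1c without passing the test, but by less than the median gene.

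Of the 50 pathway genes tested, 27 changed with polyA selection, 10 higher and 17 lower, where 50.4% of all genes were called. The median log2 fold change of the 50 was -0.39 against 0.04 for all genes. Among those with the largest change, Cacna2d1, a calcium channel subunit, fell by 2.11 on the log2 scale, Npr3, the natriuretic peptide clearance receptor, by 1.67, Kcnj2, an inward rectifier potassium channel, by 1.64, and Abcc9, a subunit of ATP-sensitive potassium channels, by 1.63 (edgeR adjusted p between 2.83e-14 and 0.00389). Kcnj2 had an adjusted p of 0.0546 without unselected replicate 1. Markers of liver cell types also differed with polyA. The summed level of 8 stellate cell, fibroblast and smooth muscle markers was 89.8 to 107 normalised CPM against 183 to 186 unselected, and that of 5 endothelial markers 76.7 to 80.6 against 174 to 196. That of 4 Kupffer cell and macrophage markers was 66.2 to 72.1 against 89.5 to 93.3. Higher with polyA was the summed level of 8 hepatocyte markers, at 73126 to 77656 against 52378 to 53161. So were the sums of 4 cholangiocyte markers, at 18.8 to 25.1 against 12.3 to 13.1, and of 3 red blood cell markers, at 207 to 252 against 165 to 181. None of these genes was at 0 in every library of either group. Their part in the falls of Slc8a1, Gja1 and Cacna1c was not tested.

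**Figure D4:**
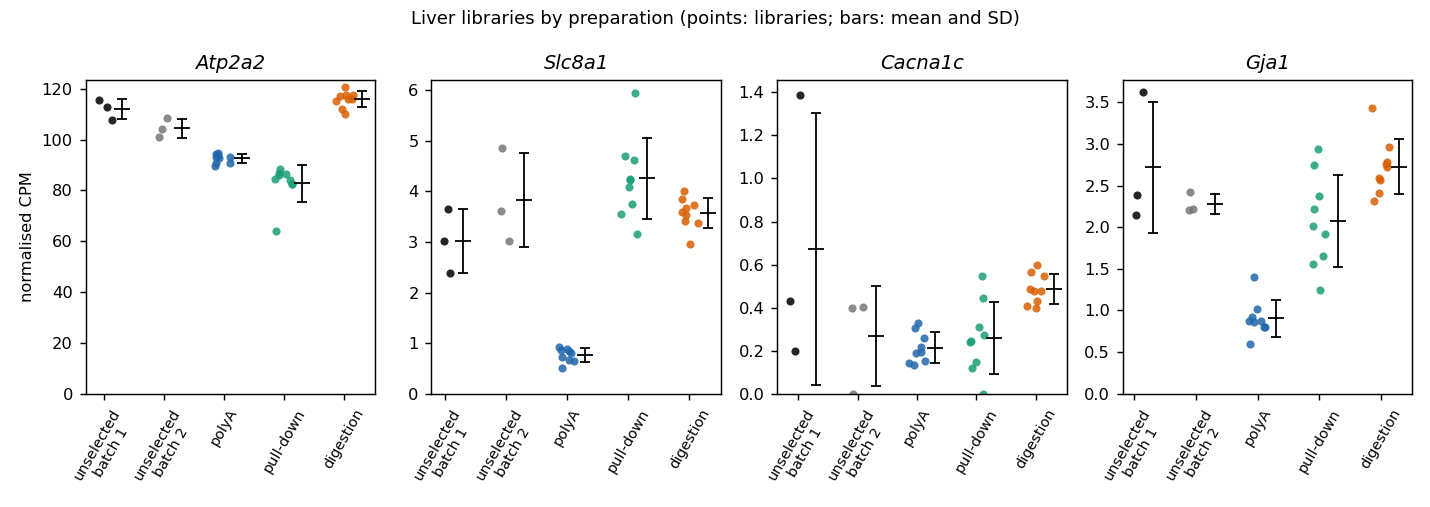
Normalised CPM of the 4 testable genes in the liver libraries by preparation; points are libraries, and the bars beside them give the mean and SD. Slc8a1 is lowest in the 9 polyA libraries, and 1 pull-down library lies apart for Atp2a2. Gja1 has its lowest mean with polyA, but its lowest pull-down library (1.25) is below the highest polyA library (1.40).

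With pull-down of rRNA, Atp2a2 was lower than in the unselected libraries of batch 2 and no other of the 4 genes passed the test, where 32.8% of all genes were called. Atp2a2 stood at 101, 104 and 108 normalised CPM unselected and at 64.1 to 88.6 (median 84.4) after pull-down, without overlap. The log2 fold change was -0.31 (SE 0.05, edgeR adjusted p = 3.53e-05). Slc8a1 (log2 fold change 0.17, SE 0.21), Gja1 (-0.28, SE 0.29) and Cacna1c (0.06, SE 0.79) overlapped between the groups. With library totals all 4 genes were called higher, each by less than the median gene except Slc8a1, at 2.42.

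Of the 50 pathway genes, 16 changed with pull-down, 8 in each direction, where 32.8% of all genes were called. Adrb1, the beta-1 adrenergic receptor, was higher by 2.56, but it had 1 count in the 3 unselected libraries and lost the call without the filter, with DESeq2, and without unselected batch 2 replicate 2 or 3 (adjusted p 0.0615 to 0.189). Fkbp1a, which binds ryanodine receptors, fell by 1.71, Atp1b1, a subunit of the sodium pump, by 0.86, Cacna1d, a calcium channel subunit, by 0.81 and Furin by 0.73 (edgeR adjusted p between 1.03e-13 and 0.0416 for these 5 genes). Cacna1d had an adjusted p of 0.254 without unselected batch 2 replicate 2. Stellate cell, fibroblast and smooth muscle markers summed to 206 to 295 after pull-down against 186 to 198 unselected, and endothelial markers to 219 to 270 against 170 to 184. Kupffer cell and macrophage markers summed to 132 to 189 against 87.5 to 92.7, and hepatocyte markers to 52720.5 to 71272 against 51635 to 52326. Red blood cell markers summed to 220.0 to 319.8 against 147 to 162, while cholangiocyte markers overlapped. Their part in these values was not tested.

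With digestion of rRNA, Atp2a2 stood at 110 to 121 normalised CPM (median 116), above the 3 unselected libraries of batch 2. The log2 fold change was 0.16 (SE 0.05, edgeR adjusted p = 0.0495), close to the threshold, and the call was lost without any one of the 3 unselected libraries (adjusted p 0.0544 to 0.205) and with DESeq2 (0.0827). The adjusted p over the alternatives other than library totals ran from 0.0245 to 0.205. Slc8a1 (log2 fold change -0.13, SE 0.21), Gja1 (0.13, SE 0.27) and Cacna1c (0.84, SE 0.73) did not pass the test and overlapped with the unselected libraries. Among all genes 14.7% were called. Of the pathway genes 6 rose and none fell: Adrb1 by 3.00, Furin by 0.50, Gjb1 by 0.49, Calm3, a calmodulin gene, by 0.45, Fkbp1a by 0.35 and Atp1b1 by 0.19. Of these, Adrb1, Furin, Fkbp1a, Calm3 and Atp1b1 lost the call when unselected batch 2 libraries were left out one at a time. Atp1b1 (edgeR adjusted p = 0.0466) lost it without replicate 1 or 2 (0.325 and 0.0991) and with DESeq2 (0.206). The 3 red blood cell markers summed to 1.71 to 3.40 normalised CPM with digestion against 147 to 162 in the unselected libraries of batch 2. Sums were also lower with digestion, without overlap, for hepatocytes (44559 to 47485 against 51635 to 52326), endothelial cells (145 to 159 against 170 to 184), stellate cells, fibroblasts and smooth muscle (166 to 177 against 186 to 198) and Kupffer cells and macrophages (64.6 to 74.0 against 87.5 to 92.7). Cholangiocyte markers overlapped. Their part in these values was not tested.

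Digestion and pull-down, matched for ramp rate, fragment length, input and batch but not for kit, differed in all 4 genes. Among all genes 70.7% were called. Atp2a2 was higher with digestion in 9 of 9 matched pairs, by a log2 fold change of 0.47 (SE 0.03, edgeR adjusted p = 3.29e-14). Slc8a1 was lower with digestion in 9 of 9 pairs, although the ranges overlapped (2.96 to 4.01 against 3.17 to 5.94 normalised CPM), with a log2 fold change of -0.30 (SE 0.08, edgeR adjusted p = 0.00154). Gja1 was higher in 8 of 9 pairs (0.41, SE 0.10, edgeR adjusted p = 0.000757) and Cacna1c in 8 of 9 (0.78, SE 0.24, edgeR adjusted p = 0.00460), both with overlapping ranges. With library totals the median gene moved to 0.55 from -0.01, the share of called genes that were higher to 90.3% from 49.1%, and Slc8a1 to 0.26, still below the median gene.

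Of the 50 pathway genes, 29 differed between these methods, 18 higher and 11 lower with digestion, where 70.7% of all genes were called. The largest differences were in Fkbp1a (2.06), Furin (1.23), Jph2 (1.15), Atp1b1 (1.05) and Kcnk3 (0.97), all higher with digestion (edgeR adjusted p between 4.69e-24 and 0.00822). Jph2 and Kcnk3 were at or near 0 in unselected liver. Endothelial markers summed to 145 to 159 normalised CPM with digestion and 219 to 270 with pull-down, and stellate cell, fibroblast and smooth muscle markers to 166 to 177 against 206 to 295. Kupffer cell and macrophage markers summed to 64.6 to 74.0 against 132 to 189, hepatocyte markers to 44559 to 47485 against 52720.5 to 71272 and red blood cell markers to 1.71 to 3.40 against 220.0 to 319.8, while cholangiocyte markers overlapped. Their part in the differences was not tested.

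Between the batches of unselected liver libraries, 0 of the 4 genes differed by edgeR's test, 0 had an unadjusted p under 0.05, and DESeq2 called 0 as well. Over all genes 0.0% were called. The largest difference was that of Cacna1c, at -1.33 (SE 0.86), on 10 counts in batch 1 and 4 in batch 2. None of the pathway genes was called, and 3 of 50 had an unadjusted p under 0.05.

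Long fragments gave higher levels of Gja1 and Slc8a1 than short fragments over the 27 selected libraries, where 44.7% of 15230 genes were called. Gja1 was higher with long fragments in 8 of 9 pairs matched for method and ramp, by a log2 fold change of 0.40 (SE 0.11, edgeR adjusted p = 0.00628). Slc8a1 was higher in 7 of 9 pairs, by 0.23 (SE 0.09, edgeR adjusted p = 0.0388), and lost the call with DESeq2 (adjusted p 0.0578) and with library totals (0.197). Its adjusted p over the other alternatives was at least 0.0427. Cacna1c (-0.39, SE 0.22) and Atp2a2 (-0.03, SE 0.03) did not pass the test. With library totals Atp2a2 was called lower with long fragments, at -0.11 (adjusted p 0.0189; 0.0189 to 0.933 over all alternatives). With library totals, 33.1% of called genes were higher with long fragments, against 55.5%.

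The length difference of Gja1 itself differed between the methods (edgeR adjusted p of the interaction = 0.0123), where 31.0% of all genes were called. In pull-down libraries Gja1 stood at 1.25, 1.55 and 2.01 normalised CPM with short fragments and 2.37, 2.75 and 2.94 with long fragments, without overlap, a log2 fold change of 0.86. With polyA selection the values were 0.598, 0.798 and 0.863 against 0.925, 1.01 and 1.40, a log2 fold change of 0.53. With digestion they were 2.31, 2.56 and 3.43 against 2.73, 2.79 and 2.96, a log2 fold change of 0.03. The pull-down library with slow ramp and long fragments rests on 3 counts of Gja1, and without it the adjusted p of the interaction was 0.0126 (0.00792 to 0.0351 over all alternatives). Without that library the interaction of Atp2a2 was also called, at an adjusted p of 0.0318 in place of 0.323, and it was called with DESeq2 (0.00133) and library totals (0.00835).

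**Figure D5:**
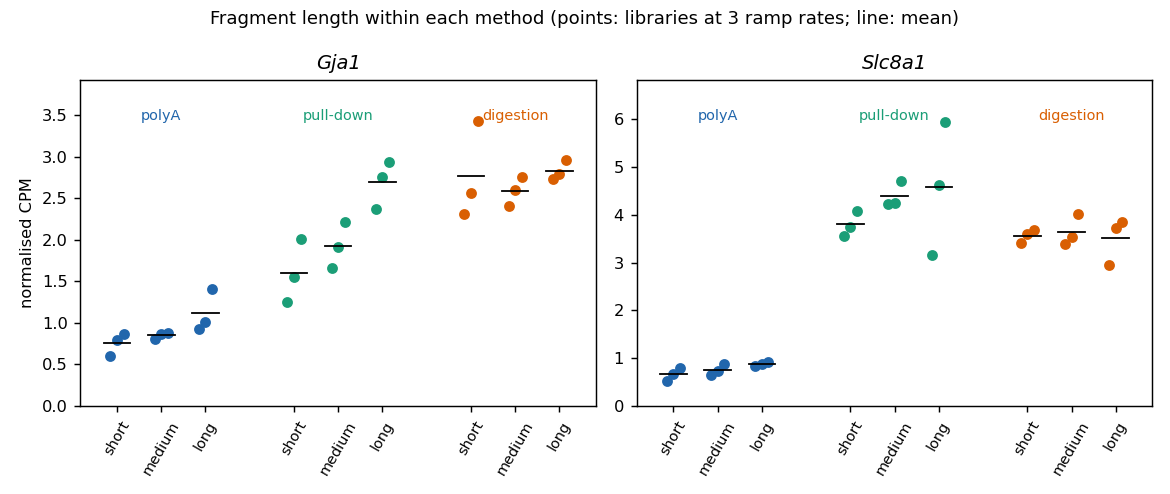
Normalised CPM of Gja1 and Slc8a1 by fragment length within each selection method; points are the 3 libraries at slow, medium and fast ramp, lines their means. Gja1 is higher with long than with short fragments in every polyA and pull-down library, and its digestion libraries overlap between lengths.

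Of the pathway genes, 24 of 49 differed between long and short fragments, 14 higher and 10 lower with long ones, where 44.7% of all genes were called. The largest were Cacna2d1 (0.59), Hcn2, a pacemaker channel gene (-0.55), Calm2 (0.48), Kcnj2 (0.47) and Mme (0.30), with edgeR adjusted p between 7.74e-07 and 0.0283. Hcn2 lost the call with DESeq2 and without the filter (0.0510 and 0.0598), and Kcnj2 with library totals (0.0509). The interaction with the method was called in 16 of 50, where 31.0% of all genes were called. First among the 16 were Camk2d, a calmodulin kinase gene, Mme and Sri (sorcin, a regulator of the ryanodine receptor). Calm2 and Atp2b4, a plasma membrane calcium pump, came next (edgeR adjusted p from 0.000538 to 0.00286 over these genes).

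No difference with the ramp rate passed the test in the 4 genes. Between fast and slow ramps 0 of 4 were called by edgeR, 0 had an unadjusted p under 0.05, and DESeq2 called 0, where 0.0328% of all genes (5 of 15230) were called. Log2 fold changes ran from -0.01 (SE 0.03) for Atp2a2 to 0.14 (SE 0.11) for Gja1. Of 49 pathway genes 0 were called by edgeR, and 2 had an unadjusted p under 0.05.

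Atp2a2 was the only one of the 9 genes with at least 10 counts in every liver library, so likeness was sought for it alone. Over the 33 liver libraries, the genes whose log2 normalised CPM followed it most closely were A1cf (Spearman rho 0.957), Foxo1 (0.952) and Ptch1 (0.949). These libraries share 1 RNA source and fall into the preparation groups above, so the points are not independent, and no p is given.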

How the data were processed

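Bulk RNA sequencing was measured in 34 libraries, 33 of liver and 1 of heart. The authors deposited estimated (expected) counts per gene; per the submitters' processing notes, which name tools without role or order, Salmon 1.9.0, UMI-tools 1.1.1, R 4.4.0 and GRCm38 were used. The transcript set, bias correction, strand setting and removal of UMI duplicates are not given in the sources used here. Of the deposited expected counts, 9.69% were not whole, and they were rounded. Salmon divides reads among similar transcripts by a model, which can move counts between similar genes. Symbols, coordinates and lengths came from GENCODE M21 (GRCm38), which held 50896 of 51368 identifiers.

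Normalised CPM used TMM factors over all libraries. Tests used edgeR 4.0.16 (R 4.3.3, limma 3.58.1): quasi-likelihood F-test, filterByExpr, Benjamini-Hochberg adjustment. Method and batch comparisons used 33 liver libraries with ramp and length as covariates; length and ramp used the 27 selected ones. The SE is the log2 fold change divided by the square root of F. DESeq2 1.42.0 was an alternative.

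Heart was compared without a test, by the ratio of normalised CPM, with counts and TMM-scaled library sizes summed over the liver libraries. Each ratio has an exact conditional binomial (Clopper-Pearson) 95% interval. Replicates of unselected liver differed by more than sampling noise on average (mean chi-square per gene 1.40 to 3.85), while the median over genes was 0.495 to 0.626. The members, gene lists and motifs were chosen with earlier results of these data known. Named were the 9 members; for heart the 8 highest and 6 lowest pathway ratios; per liver comparison up to 5 called pathway genes by size of change (all 6 for digestion; by adjusted p for the interaction, which has no single fold change); and the 3 genes most like a member with at least 10 counts in every liver library. Of the genes this rule picks, 2 are not reported here. A few further pathway genes of the list (Npr1, Npr2, Npr3, Itpr1 and Itpr3) were named after their values were seen.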

Additional observations from a re-analysis of the deposited data

Results flagged for a closer look

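Atp2a2 in the pull-down libraries had 1 library apart from the others. The library with slow ramp and long fragments stood at 64.1 normalised CPM, against 82.4 to 88.6 in the other 8, and its distance to the nearest was 0.747 of the whole range. It is the shallow library, with 1.13 M counts in all and 81 counts of Atp2a2. Of 10 gene and group combinations examined this way, 1 stood out, and chance alone marks about 1 in 20.

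The difference of Gja1 between long and short fragments was not the same in the 3 selection methods, by a test of the interaction (edgeR adjusted p = 0.0123). It was 0.86 with pull-down, 0.53 with polyA selection and 0.03 with digestion on the log2 scale.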

How the results depend on the processing

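The count of 9 genes at least 4-fold higher in heart was the same under every alternative run: other scalings, the batch 2 or all 6 unselected liver libraries as reference, 2-fold or 16-fold in place of 4-fold, and each of the 3 unselected liver libraries of batch 1 left out. Without 1 of these 3 the bounds of Casq2, Nppa and Nppb fell to log2 values of 9.88 to 9.94, 5.99 to 6.05 and 6.13 to 6.19, since the floor then rests on fewer libraries.

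Library totals in place of TMM turned differences from unselected libraries positive. For polyA the log2 fold changes became 2.37 for Atp2a2, 0.64 for Slc8a1, 0.93 for Cacna1c, 0.91 for Gja1, 0.53 for Cacna2d1, 0.97 for Npr3, 0.98 for Kcnj2 and 1.02 for Abcc9. For pull-down they became 1.95 for Atp2a2, 1.97 for Gja1, 0.55 for Fkbp1a, 1.40 for Atp1b1, 1.44 for Cacna1d and 1.54 for Furin, and 4 of the 9 genes were called in place of 1. For digestion Slc8a1 became 2.68 and 4 genes were called in place of 1, and against pull-down Slc8a1 became 0.26. Rescaling shifts all genes alike, by the medians given above.

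Other sign changes were of genes that had not passed the test: Cacna1c with pull-down (-0.51 to 0.48 with 1 unselected batch 2 library left out, the lowest without replicate 1, and -0.0079 with DESeq2), Slc8a1 with digestion (-0.27 to 0.078, the highest without replicate 3) and Gja1 between batches (-0.39 to 0.0098 with 1 library left out, the highest without unselected batch 1 replicate 3). For digestion against unselected, the number of the 9 genes called was 0 with DESeq2 and 0 whichever of the 3 unselected batch 2 libraries was left out. It was 1 in place of 2 with DESeq2 for long against short fragments, and 2 in place of 1 for the interaction with library totals, with DESeq2 and without pull-down replicate 1. The cause was not tested.

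For batch 2 against batch 1, the labels give replicate numbers to both groups. With the replicate number as a block, 0 of the 9 genes were called, and 82 of all genes in place of 0. Fitting the 6 unselected libraries alone called 39, and DESeq2 called 18. Deviations of same-numbered libraries correlated at 0.03, -0.11 and -0.17, so the numbers are not taken to pair the libraries, and of the 6 libraries 1, replicate 1 of batch 1, correlated best with its own number. Leaving out unselected batch 2 replicate 2 or batch 1 replicate 2 gave 2 called genes each. With the combination of ramp and length as a block, 4 of the 9 genes differed between digestion and pull-down, as before. Fast against slow ramps called 8 genes with DESeq2.

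Depth limits what can be said of Ryr2, Pln, Casq2, Nppa and Nppb in liver, with at most 9 counts in any library, and of Cacna1c, with at most 28.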
